A study of Mus musculus with 12 samples.

Results

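The response of *Mbnl* DKO cells to interferon gamma (IFNγ) was set against that of NTC cells, gene by gene, over every gene that reached a level of 1 TPM (a transcript's share of its library, scaled to a fixed total) in at least 3 of the 12 libraries. That rule kept 11663 of 23022 listed genes, and it looks only at level, not at any response. The cells were B16-F10, a mouse melanoma line, in a Cas9-expressing derivative that all 4 groups share. NTC cells carried a non-targeting paired guide RNA (the labels write "No template control"), and DKO cells a pair directed at *Mbnl1* and *Mbnl2*. Both were polyclonal edited pools rather than clones, so some unedited alleles remain in the DKO pool. Each genotype was left unstimulated or given IFNγ at 1 ng/mL for 24 h, with 3 libraries per group numbered as replicates. Nothing in the labels ties them to separate cultures, so p-values measure the spread between these libraries, which may be technical. For each gene, the NTC response and the DKO response are the treated minus the untreated mean of log2(TPM + 1), and the response difference is the DKO response minus the NTC response. A value below 0 therefore means that a rise was smaller in DKO cells, or that a fall was larger.

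IFNγ binds a receptor that signals through the JAK-STAT pathway. A first set of genes is switched on through GAS elements, among them the factor *Irf1*, which with other factors acts on ISRE elements of a second set. In melanoma cells, as in most cell types, the best known products are the MHC class I chains and the machinery that cuts and loads their peptides, the guanylate-binding and immunity-related GTPases that attack intracellular pathogens, and antiviral effectors. Muscleblind-like proteins bind RNA and are known for control of alternative splicing and of the stability and localisation of transcripts.

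Totals over the listed genes ran from 805782 to 827191 TPM across DKO and from 844185 to 874612 TPM across NTC libraries. TPM keeps no read depth, so precision was taken from replicates. Replicates of a group differed with an SD (log2, median over tested genes) of 0.0715 for untreated NTC, 0.0789 for treated NTC, 0.0690 for untreated DKO and 0.0934 for treated DKO. RNA of the targeted genes remained in DKO cells, where *Mbnl1* read 41.3, 41.1 and 44 TPM without IFNγ and 44.9, 42.7 and 47.5 TPM with it. In NTC cells *Mbnl1* read 56.8, 57 and 55.6 TPM without IFNγ and 60.5, 63.9 and 63.3 TPM with it. Without IFNγ, DKO minus NTC on the log2 scale was −0.41 for *Mbnl1* and −0.20 for *Mbnl2*. It was 0.41 for *Mbnl3*, which the guides did not target. All 7 melanoma cell markers were present in every library, with a summed level of 16647 to 18643 TPM in NTC and 11124 to 12414 TPM in DKO libraries. Of 8 listed immune cell markers, 5 were listed at 0 throughout and the sum of all 8 stayed at or below 1.87 TPM. The endothelial markers summed to at most 0.914 TPM and the fibroblast markers to at most 5.63 TPM.

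Stretches of promoter sequence are shown because the genes beside them carry the clearest departures, and for *H2-K1* a lack of departure, in the results that follow. They are RefSeq sequences of build GRCm38.p6, written 5′ to 3′ on the strand of the gene named, and end at the base before its annotated start. *B2m* lies at chr2:122147437-122147686 (plus strand), *H2-D1* at chr17:35262844-35263093 (plus strand) and *H2-K1* at chr17:34000348-34000597 (minus strand, the first of 2 entries). *Tap1* and *Psmb9* stand head to head, and the bases between their starts, chr17:34187331-34187555, are given on the strand of *Tap1*. GENCODE M21 also holds forms of *Psmb9* and *H2-D1* that begin further upstream than these starts. Capitals mark any match on either strand to GAAANNGAAA (the core of an ISRE), TTCNNNGAA (a GAS), TGACG (part of the X2 element of class I promoters) or ATTGG (the core of a Y box, CCAAT on the other strand).
B2m: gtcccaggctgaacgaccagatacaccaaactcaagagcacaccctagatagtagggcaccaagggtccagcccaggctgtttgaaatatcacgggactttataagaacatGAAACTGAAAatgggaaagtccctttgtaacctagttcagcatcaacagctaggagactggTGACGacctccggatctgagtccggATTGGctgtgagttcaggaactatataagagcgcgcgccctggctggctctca
Tap1-Psmb9: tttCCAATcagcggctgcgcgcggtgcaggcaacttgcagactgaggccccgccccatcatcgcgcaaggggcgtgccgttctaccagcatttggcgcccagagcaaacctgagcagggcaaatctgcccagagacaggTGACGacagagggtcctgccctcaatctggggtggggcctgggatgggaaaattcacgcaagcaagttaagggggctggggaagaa
H2-D1: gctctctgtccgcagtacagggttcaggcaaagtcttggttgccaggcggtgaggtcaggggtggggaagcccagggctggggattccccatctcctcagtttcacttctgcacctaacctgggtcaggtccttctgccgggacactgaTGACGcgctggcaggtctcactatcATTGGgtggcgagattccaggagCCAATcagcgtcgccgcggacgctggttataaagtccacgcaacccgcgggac
H2-K1: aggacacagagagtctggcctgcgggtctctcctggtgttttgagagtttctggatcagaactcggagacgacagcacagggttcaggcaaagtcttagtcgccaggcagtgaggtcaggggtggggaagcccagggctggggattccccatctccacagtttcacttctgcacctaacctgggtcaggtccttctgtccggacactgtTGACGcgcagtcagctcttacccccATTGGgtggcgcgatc

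The *B2m* stretch held GAAACTGAAA at position −139, TGACG at −78 and ATTGG at −53, counted from −1 at its last base. *H2-D1* held TGACG at −101 with Y box letters at −76 and −53, and *H2-K1* held TGACG at −41 with ATTGG at −16. The stretch between *Tap1* and *Psmb9* held TGACG and CCAAT but neither of the interferon motifs. In a global alignment of the 250 bases of *H2-D1* and *H2-K1*, 174 of 310 columns held identical bases, or 56.1%. The 310 columns include those with a gap in either stretch, so the share over paired bases is higher. The stretches end at different distances from their TGACG letters, −101 and −41, and are offset in the alignment. Over 27025 genes with a promoter entry, 3.46% held GAAANNGAAA in these 250 bases, 8.13% TTCNNNGAA, 19.8% TGACG and 37.5% ATTGG. A match is a run of letters and not a binding site, and a missing match says only that these letters are not in the window.

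The NTC response passed the threshold (limma, Benjamini-Hochberg adjusted p under 0.05) for 1411 genes, 12.1% of those tested, of which 853 rose (7.31%) and 558 fell (4.78%). The DKO response passed it for 91 genes (0.78%), 79 up (0.677%) and 12 down (0.103%). These counts do not test whether the responses differ, which the response difference does. It passed for 4 genes, 0.0343% of those tested. *B2m*, *Psmb9* and the gene listed as ENSMUSG00000093701 lay below 0 (0.0257%) and *Gfra4* above (0.00857%). At an unadjusted p under 0.05 stood 1340 genes (11.5%), 726 below 0 (6.22%) and 614 above (5.26%), while 51.6% of all tested genes lay below 0 and the median difference was −0.0063. With equal library totals 42.8% of tested genes lay below 0 and the median was 0.027, so this small lean changed side with the scaling. None of the 4 calls stood in every fit with a library left out, and without treated DKO replicate 1 there were 0 calls, with 1131 genes at an unadjusted p under 0.05. Across the transcriptome the response difference thus had no common direction, and its size was read along the response itself.

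The slope describes that. Fitted by least squares over all 11663 genes, the DKO response on the NTC response had a slope of 0.379, with a Pearson correlation across genes of 0.535. The 2 responses share no library, but genes are not independent replicates and no p is given. Most genes did not respond, so error in the NTC response flattens this slope. Of the variance of the NTC response across genes, 71.9% exceeded the error expected from replicates, and of that of the DKO response 47.4%. Dividing by the first share gave 0.526, total least squares gave 0.539, and the regression read in the other direction gave 1.32. The SD of the response across genes was 0.225 in NTC and 0.159 in DKO cells.

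Genes with a clear response gave a slope nearer to 1. In bulk RNA, a response in fewer cells and a weaker response in each cell cannot be told apart. They were chosen by the response averaged over both genotypes, which favours neither (763 genes, or 6.54%, rose and 431, or 3.7%, fell by that measure), and the line was drawn through the origin. For the 74 genes that rose with an averaged response over 0.5, the slope was 0.826, or 0.855 read in the other direction. Their median response was 1.14 in NTC and 0.95 in DKO cells. The response was smaller in DKO for 62 of them (83.8%), and at an unadjusted p under 0.05 it was smaller for 23 and larger for 1. Of all tested genes, 6.22% lay below 0 at that p and 5.26% above. The 62 include *Psmb8*, which was tested through its treated NTC libraries alone. Over all 763 rising genes the share with a smaller response in DKO was 81.4%, and over the 431 falling ones 86.3%. The 74 thus stood close to the other responding genes in this share. For the 39 genes over 1, the slope was 0.838 and 35 were smaller in DKO. The 689 genes that rose by 0.5 or less had a slope of 0.548, those that fell one of 0.419, and the 25 that fell by more than 0.5 one of 0.414. Read in the other direction these were 0.798, 0.689 and 0.678, so they are less certain than the slope of the 74 genes. The slope of 0.414 ran from 0.252 to 0.57 with 1 library left out, and was 0.252 without treated NTC replicate 1. Chosen by the NTC response alone with no cut on size, 853 genes that rose gave 0.651 and 558 that fell gave 0.236. The like sets chosen by the averaged response, 763 and 431 genes, gave 0.770 and 0.419. A choice on the NTC response favours large values there.

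**Figure D1:**
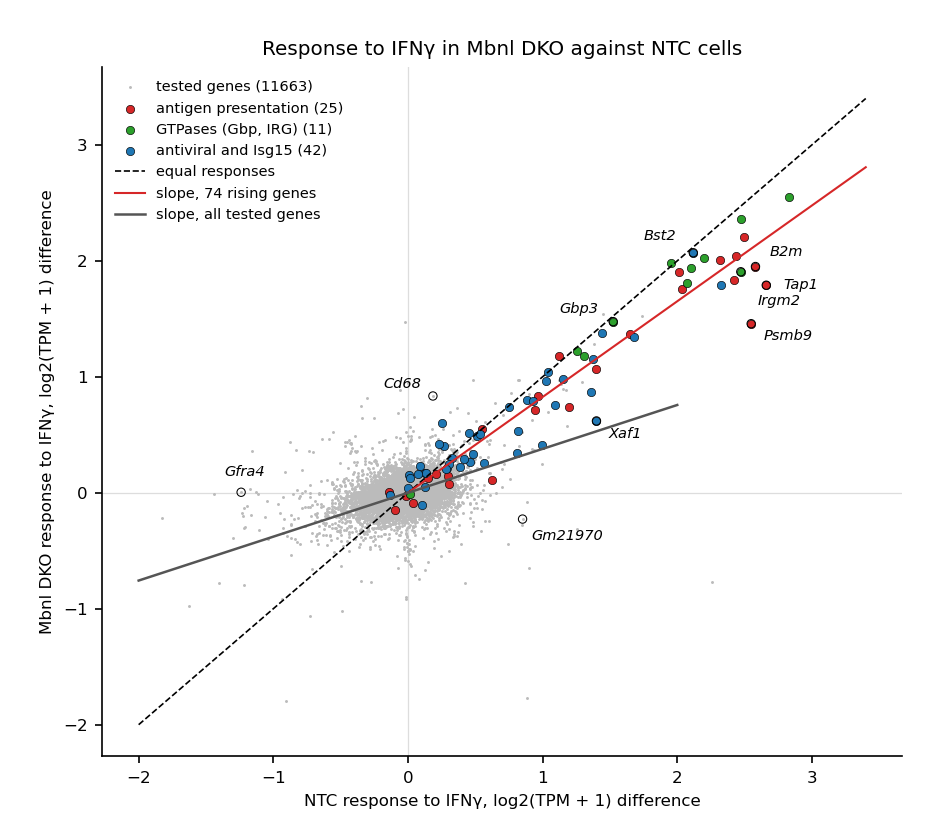
Each point is a gene, with its NTC response on the horizontal axis and its DKO response on the vertical axis, both as log2(TPM + 1) differences. Colored points are members of the antigen presentation, GTPase and antiviral lists, circled points are named genes, and lines show equal responses, the slope of 0.826 over 74 rising genes and the slope of 0.379 over all 11663. Most colored points lie between the line of equal responses and a little under the slope of the rising genes, with *Psmb9* and *Xaf1* well under it.

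The slope rose with the size of the response among rising genes and much less among falling ones. With genes binned by averaged response, significant or not, it was 0.286 between 0.1 and 0.2 (1803 genes), 0.411 up to 0.3, 0.513 up to 0.5 and 0.592 up to 1. It reached 0.869 between 1 and 2 (25 genes) and 0.818 above 2, a bin of only 14 genes. Among falling genes it ran from 0.228 to 0.327 over the bins down to −1, and was 0.555 in a last bin of 5 genes. In every bin, rising or falling, more genes had the smaller response in DKO, from 63.9% to 100%. Error in the NTC response flattens these slopes most where responses are small, and its part in the climb was not tested. Between 0.1 and 0.2 in size, the median response was 0.18 in NTC and 0.09 in DKO for rising genes, and −0.20 and −0.08 for falling ones. Between 0.5 and 1 it was 0.81 and 0.68, and for falling genes −0.87 and −0.33.

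The slope of the strongly rising genes changed little with the library and that of all genes a great deal. Taken 1 at a time against the untreated DKO mean, the treated DKO libraries gave 0.858, 0.782 and 0.837 for the 74 rising genes. Over all genes they gave 0.416, 0.160 and 0.560, and over the 25 falling genes 0.528, 0.190 and 0.524. Replicate 2 of treated DKO was lowest in each case. Left out, it raised the slope over all genes to 0.488, and without replicate 3 the slope was 0.288. For the 74 rising genes, leaving out any 1 of the 12 libraries gave 0.808 to 0.848.

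**Figure D2:**
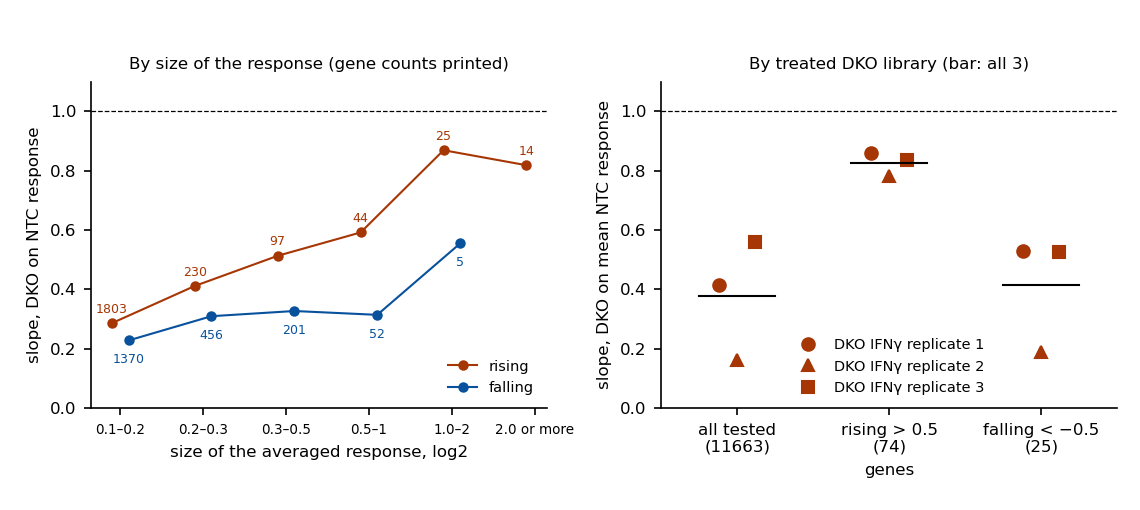
The left panel plots the slope of the DKO on the NTC response against the size of the averaged response (log2) for rising and falling genes, with the number of genes printed at each point. The right panel plots the slope for each treated DKO library over 3 sets of genes, with bars for the 3 libraries together. The slope of rising genes climbs from 0.286 to above 0.8, and replicate 2 lies at 0.160 over all genes but at 0.782 over the rising ones.

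The GC content of the genes moved with the small responses. GC came from GENCODE M21 transcripts for 11563 tested genes. Over 4 equal groups of genes from the lowest to the highest GC, the median NTC response ran 0.13, 0.07, −0.01 and −0.13, and each treated NTC library followed that order. The median DKO response ran 0.02, 0.02, 0.01 and −0.02. This flat line averaged libraries that differ. Treated DKO replicate 3 ran from 0.10 down to −0.10 and replicate 2 from −0.06 up to 0.07. The part of this gradient that comes from library preparation and the part that comes from the cells were not tested apart.

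**Figure D3:**
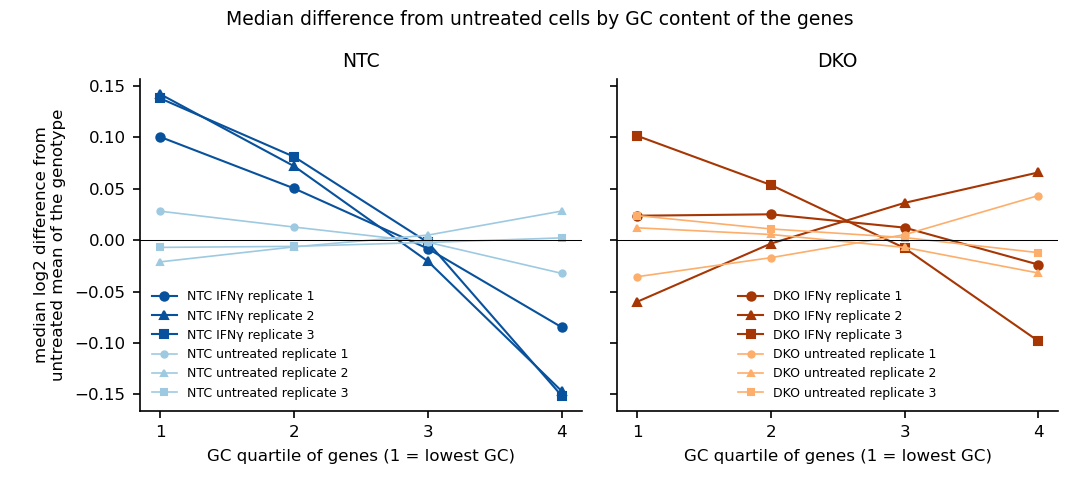
Medians of the log2 difference from the untreated mean of the same genotype are plotted for each library over 4 equal groups of genes ordered by GC content. All 3 treated NTC libraries fall from left to right, while treated DKO replicate 2 rises and replicate 3 falls.

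With the trend on GC content and gene length taken out of each library, 519 genes passed in NTC and 117 in DKO, so that the counts stood closer. The response difference then passed for 5 genes (0.0432%), all below 0. They were *Tap1*, *B2m*, *H2-D1*, *Psmb9* and ENSMUSG00000093701, and *Gfra4* was no longer past the threshold. Genes at an unadjusted p under 0.05 fell to 886, with 4.22% below 0 and 3.44% above. The slope over all genes became 0.433 and that over the rising genes 0.825.

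*B2m* (ENSMUSG00000060802, chr2:122147686-122153083) encodes β2-microglobulin, the light chain that every MHC class I molecule needs at the cell surface. It read 325, 294 and 314 TPM in untreated NTC libraries and 1794, 1924 and 1877 TPM in treated ones. Untreated DKO libraries read 256, 263 and 276 TPM and treated DKO libraries 1057, 933 and 1097 TPM. No treated DKO library reached any treated NTC library, and the untreated groups did not overlap either. The rise was 6.00-fold in NTC and 3.88-fold in DKO cells, and the gain in DKO was 49.2% of the gain in NTC. The response difference was −0.63 (SE 0.08, adjusted p = 0.0256), and it was −0.49 with GC and length removed (adjusted p = 0.000426). *B2m* has a low GC content, 41.2%.

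The heavy chains did not move as 1 group. *H2-D1*, a classical class I chain, rose from 64.3, 62.6 and 64.9 to 266, 272 and 258 TPM in NTC cells. In DKO cells it rose from 51.6, 50.7 and 50.5 to 175, 179 and 171 TPM. DKO libraries were below NTC libraries in both conditions and the response difference was −0.28 (SE 0.05, adjusted p = 0.123). *H2-K1*, the other classical chain of this strain and named after its values were seen, went from 60.6, 56.9 and 60.9 to 140.1, 131 and 121 TPM in NTC cells. In DKO cells it went from 34.6, 33 and 31 to 75.6, 80.5 and 70.8 TPM. It was lower in DKO without IFNγ by 0.84 on the log2 scale (adjusted p = 5.11e-07) and with it by 0.78 (adjusted p = 8.79e-07), yet its response was 1.12 in NTC and 1.18 in DKO. The difference of 0.05 (SE 0.09) had an adjusted p of 0.828. Class I heavy chains are similar in sequence, and how their shared reads were split is uncertain.

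Over the whole list of MHC class I chains, 8 of 15 genes were tested and 7 of the 8 lay below 0, with a median difference of −0.26. At an unadjusted p under 0.05 stood 4 below and 0 above (6.22% and 5.26% of all genes), and 1, *B2m*, passed the adjusted threshold. In NTC cells 6 rose (7.31% of all genes did) and in DKO cells 5 (0.677% did). The slope over the 6 members with an averaged response past the threshold was 0.80. *H2-Q6* was tested through its treated NTC libraries alone, so a difference below 0 was favoured there. Over the other 7 members the median was −0.28, with 6 below 0. With GC and length removed the median over all 8 tested members, *H2-Q6* included, was −0.31.

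Peptides for class I molecules are cut by the immunoproteasome, whose 3 inducible subunits replace constitutive ones, with the activator PA28. All 5 genes of that list were tested, but *Psmb8* reached 1 TPM only in treated NTC libraries, so a difference below 0 was favoured there and it is left out of the counts. The other 4 rose in both genotypes, with a median difference of −0.34 and a slope of 0.77. All 4 lay below 0 with an unadjusted p under 0.05, as did 6.22% of all genes. *Psmb9* (ENSMUSG00000096727, chr17:34181987-34187764), the β1i subunit, read 1.2, 1.04 and 1.12 TPM in untreated NTC and 12.5, 12.1 and 9.83 TPM in treated NTC libraries. It read 1.04, 1.17 and 0.931 TPM in untreated DKO and 5.34, 4.56 and 4.04 TPM in treated DKO libraries. The untreated groups overlapped and the treated ones did not. The fold rise was 10.2 in NTC and 4.43 in DKO cells, and the response difference was −1.09 (SE 0.16, adjusted p = 0.0256).

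The other immunoproteasome genes showed smaller differences, none past the adjusted threshold. *Psmb10*, the β2i subunit, differed by −0.39 (adjusted p = 0.364). Its treated NTC libraries read 60, 57.5 and 61.5 TPM and its treated DKO libraries 63.5, 57.8 and 56.7 TPM, which overlap. Its untreated libraries did not overlap, with 11, 8.96 and 10.8 TPM in NTC against 13.5, 13.5 and 13.8 TPM in DKO cells. The smaller response in DKO thus stood beside a higher start, not a lower end. *Psme2*, a subunit of PA28, went the other way. It started at 35.9, 42.5 and 37.3 TPM in NTC against 38.8, 40.3 and 38.5 TPM in DKO cells and ended at 214, 228 and 222 TPM against 199, 174 and 179.6 TPM. Its difference was −0.29 (adjusted p = 0.364). *Psme1* and *Psmb8*, named after their values were seen, differed by −0.28 and −0.45 (adjusted p = 0.364 and 0.42). *Psmb8* is listed at 0 in all 6 untreated libraries, and read 1.36, 1.37 and 1.15 TPM in treated NTC and 0.488, 0.589 and 0.975 TPM in treated DKO libraries.

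*Tap1* (ENSMUSG00000037321, chr17:34187553-34197225) encodes a subunit of the transporter that carries peptides into the endoplasmic reticulum. It went from 0.695, 0.737 and 0.806 TPM to 9.85, 9.35 and 11 TPM in NTC cells. In DKO cells it went from 1.37, 0.942 and 1.15 TPM to 7.11, 5.96 and 6.26 TPM. DKO libraries were thus above NTC libraries without IFNγ and below them with it. The response difference of −0.87 (SE 0.14) had an adjusted p of 0.0709, and of 0.0321 with GC and length removed. The annotated ends of *Tap1* and *Psmb9* overlap on opposite strands, and the libraries are unstranded, so reads from that overlap cannot be told apart.

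Other genes of peptide loading were mixed. *Erap1*, which trims peptides in the endoplasmic reticulum, rose from 3.63, 3.71 and 2.73 to 21.7, 22.1 and 22.9 TPM in NTC and from 4.77, 3.82 and 4.65 to 19, 15.9 and 19.9 TPM in DKO cells. Its difference was −0.59 (SE 0.15, adjusted p = 0.364). *Nlrc5*, the transactivator of class I genes, differed by −0.30 (adjusted p = 0.445). *Tapbp*, which encodes tapasin and was named after its values were seen, gained more TPM in DKO (31.1) than in NTC (26.6), with a log2 difference of −0.11 (adjusted p = 0.698). On the whole list, 10 of 12 members lay below 0, with a median of −0.08. At an unadjusted p under 0.05 there were 2 below and 0 above (6.22% and 5.26% of all genes). The slope was 0.80 over 9 members with an averaged response past the threshold. The antigen presentation genes were among those the study singled out in these same libraries, so their direction is not independent evidence.

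**Figure D4:**
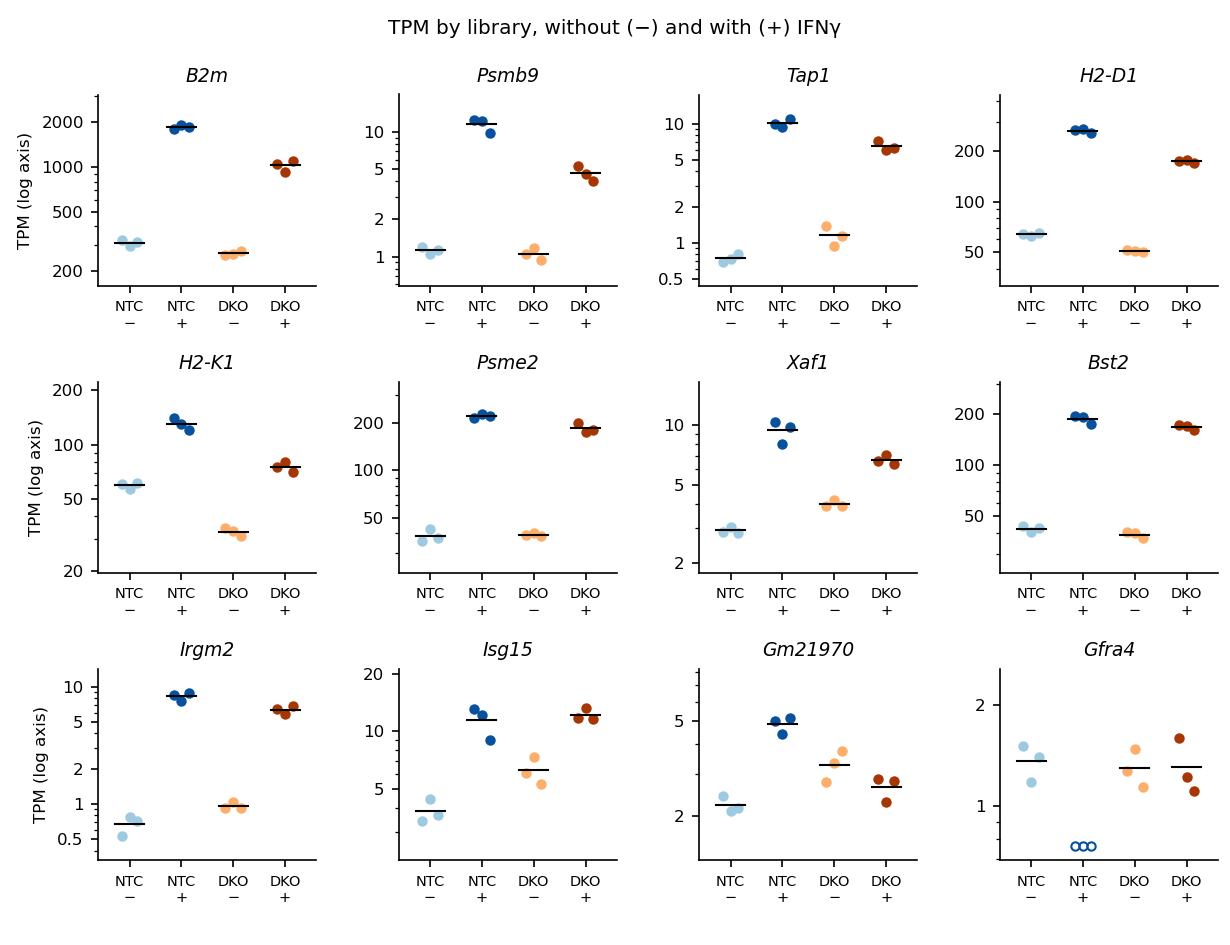
TPM of 12 genes in each library on log axes, with points for the 3 libraries of each condition, black bars for their means, and open points at the foot of the panel for libraries listed at 0. *B2m*, *H2-D1*, *Psmb9* and *Tap1* end lower in treated DKO than in treated NTC libraries without overlap, *Isg15* starts higher in untreated DKO libraries, and *H2-K1* is lower in DKO libraries in both conditions by a like distance.

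The constitutive proteasome core responded weakly, and past the threshold in NTC cells alone. These subunits form the barrel that degrades ubiquitinated proteins. In NTC cells 8 of 14 rose (7.31% of all genes did) and in DKO cells 0 of 14 (0.677% did). The response difference lay below 0 for 10 of 14, with a median of −0.12. At an unadjusted p under 0.05 stood 5 below and 0 above (6.22% and 5.26% of all genes). *Psma1* went from 210.0, 209.6 and 209.5 to 239, 241 and 243 TPM in NTC and from 211, 218 and 218 to 215, 205 and 228 TPM in DKO cells. Its difference was −0.20 (SE 0.06, adjusted p = 0.364) and −0.09 with GC and length removed. The slope over 8 members, drawn through the origin, was 0.31. The like slope was 0.548 over the 689 genes that rose by 0.5 or less. It was 0.286 over rising genes with an averaged response between 0.1 and 0.2, significant or not. With GC and length removed the median of the list was −0.06.

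GTPases kept most of their response. The guanylate-binding proteins, large GTPases that coat and break open pathogen vacuoles, had 4 of 12 members tested, all of which rose in both genotypes. Their slope was 0.92 and their median difference −0.09, with 0 members at an unadjusted p under 0.05 in either direction. *Gbp2* rose from 1.98, 1.62 and 2.31 to 18.5, 22.4 and 19.3 TPM in NTC and from 2.06, 2.71 and 2.23 to 17.8, 16.7 and 20.9 TPM in DKO cells. The treated groups overlapped, and the difference was −0.28 (SE 0.16, adjusted p = 0.496). *Gbp3*, named after its values were seen, differed by −0.05 (SE 0.13, adjusted p = 0.908). With GC and length removed the median of the list was −0.02. Left without 1 library it ran from −0.16, without treated DKO replicate 1, to −0.05, without treated DKO replicate 3.

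The immunity-related GTPases, smaller relatives with a like role, had 7 of 10 members tested, a slope of 0.90 over 6 and a median of −0.16. That median rested on treated DKO replicate 2, without which it was −0.016, and ran to −0.23 without others. *Irgm2*, a regulator of the family, departed most. It read 0.535, 0.783 and 0.714 TPM and then 8.56, 7.47 and 8.9 TPM in NTC, and 0.924, 1.04 and 0.931 TPM and then 6.48, 5.8 and 6.85 TPM in DKO cells. The difference was −0.57 (SE 0.14, adjusted p = 0.364). *Igtp* and *Tgtp2* differed by −0.18 and −0.12 (adjusted p = 0.709 and 0.861), the former −0.016 without treated DKO replicate 2 and −0.29 without treated DKO replicate 3, and *Ifi47*, named after its values were seen, by 0.02 (adjusted p = 0.972). *Tgtp2* is listed at 0 in all untreated libraries and has a near-identical neighbour, *Tgtp1*, so its level is uncertain.

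The signaling genes showed small differences. Of 21 genes of the IFNγ receptor and JAK-STAT list 19 were tested, with a median of −0.03 and 11 below 0. With GC and length removed the median was −0.07, 14 lay below 0 and 3 of them had an unadjusted p under 0.05 (4.22% of all genes). Leaving out 1 library moved the deposited median between −0.071, without treated DKO replicate 2, and −0.006, without untreated NTC replicate 1. Among 9 tested interferon regulatory factors the median was 0.12, with 3 below 0. It was 0.04 with GC and length removed and 0.06 without untreated NTC replicate 2. In NTC cells 2 factors rose (7.31% of all genes did) and 2 fell (4.78% did). In DKO cells 2 rose (0.677% did) and 0 fell (0.103% did). The slope over the 5 factors with an averaged response past the threshold was 0.72. *Irf5* was tested through its untreated DKO libraries alone, and over the other 8 factors 3 lay below 0 with a median of 0.13. *Irf9*, a factor that acts on ISRE elements, differed by −0.34 (SE 0.11, adjusted p = 0.377). *Irf1*, named after its values were seen, differed by −0.20 (adjusted p = 0.451) and gained 12.1 TPM in DKO against 11.1 TPM in NTC cells.

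Antiviral effectors ranged widely around the common slope. Of 46 listed genes 32 were tested and 22 lay below 0. At an unadjusted p under 0.05 there were 5 below and 1 above (6.22% and 5.26% of all genes). Their median was −0.07, or −0.04 without treated NTC replicate 2 and −0.04 with GC and length removed, and their slope, over 24 members, 0.80. *Oas1c*, *Oas1g*, *Apol9a* and *Apol9b* were tested only because treated libraries of 1 or both genotypes reached 1 TPM, and over the other 28 members 19 lay below 0 with a median of −0.06. Among those 28, 4 lay below and 1 above 0 at an unadjusted p under 0.05, and the slope over 22 members was 0.81. *Xaf1*, which binds and opposes the caspase inhibitor XIAP, went from 2.88, 3.06 and 2.85 to 10.4, 8 and 9.84 TPM in NTC and from 3.89, 4.2 and 3.89 to 6.6, 7.05 and 6.36 TPM in DKO cells. It started higher and ended lower in DKO, with a difference of −0.78 (SE 0.13, adjusted p = 0.0709). *Bst2*, tetherin, which holds budding virions at the cell surface, rose from 43.9, 40.2 and 42.8 to 194, 193 and 175 TPM in NTC and from 40.2, 39.8 and 37.1 to 172, 169 and 160.4 TPM in DKO cells. Its difference was −0.05 (SE 0.08, adjusted p = 0.819). *Rsad2*, viperin, named after its values were seen, had a response of 1.04 in each genotype.

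Some interferon genes had a smaller log2 response in DKO beside a higher start. *Ifitm3*, a membrane protein that blocks viral fusion, read 32.1, 21 and 27.5 TPM in untreated NTC and 37.7, 42.9 and 41.5 TPM in untreated DKO libraries. With IFNγ it read 137, 127 and 146 TPM in NTC against 146, 145 and 139 TPM in DKO cells. The treated groups overlapped, the untreated ones did not, and the response difference was −0.53 (SE 0.16, adjusted p = 0.364). *Isg15*, the ubiquitin-like modifier, read 3.42, 4.42 and 3.67 TPM and then 13.2, 12.2 and 9.08 TPM in NTC, and 6.07, 7.37 and 5.35 TPM and then 11.7, 13.3 and 11.6 TPM in DKO cells, a difference of −0.49 (adjusted p = 0.409). *Lgals9*, a galectin that binds the receptor TIM-3, was higher in DKO both without IFNγ, by 0.75 on the log2 scale (adjusted p = 6.48e-06), and with it, by 0.33 (adjusted p = 0.00337), and differed in response by −0.42 (adjusted p = 0.364).

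This made the count of smaller responses depend on the scale. Of the 74 rising genes, 62 had a smaller log2 response in DKO and 56 a smaller gain in TPM, and 51 had both. The log2 response alone was smaller for 11 and the TPM gain alone for 5. The median gain in DKO was 86.1% of that in NTC. Without IFNγ, 22 of the 74 were higher in DKO and 11 lower at an adjusted p under 0.05, where 17% of all tested genes were higher and 19.4% lower. With IFNγ, 10 were higher and 25 lower, where 19.5% and 23.9% of all tested genes were.

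The PARP family, whose interferon-induced members add ADP-ribose to proteins of virus and host, had the slope nearest to 1 of the lists with 4 or more responding members. Of 17 tested members 8 rose in NTC (7.31% of all genes did) and 5 in DKO (0.677% did), and the slope over 11 was 0.98. Their median of −0.01 changed sign under other scalings, to 0.02 with equal library totals and 0.01 with GC and length removed. *Parp12* went from 5.52, 5.87 and 5.28 to 17.1, 15.9 and 17.8 TPM in NTC and from 4.27, 5.49 and 5.07 to 16.2, 15 and 17.8 TPM in DKO cells. The groups overlapped in each condition, and the difference was 0.09 (SE 0.12, adjusted p = 0.786). *Parp14*, named after its values were seen, differed by 0.16 (adjusted p = 0.676).

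Of 58 rising genes with a promoter entry, 20 held the ISRE core of the stretches printed above in the 250 bases before their start (34.5%, against 3.46% of all promoters), and 9 the GAS letters (15.5%, against 8.13%). The median response difference was −0.22 over the 20 genes with the ISRE core and −0.22 over the 38 without it. It was −0.18 over the 9 with GAS letters and −0.26 over the 49 without. The TGACG letters stood in 12 of the 58 (20.7%), with a median of −0.28 against −0.18 in the rest. These are descriptions of matches in a fixed window, and several of these genes are neighbours that share a locus.

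**Figure D5:**
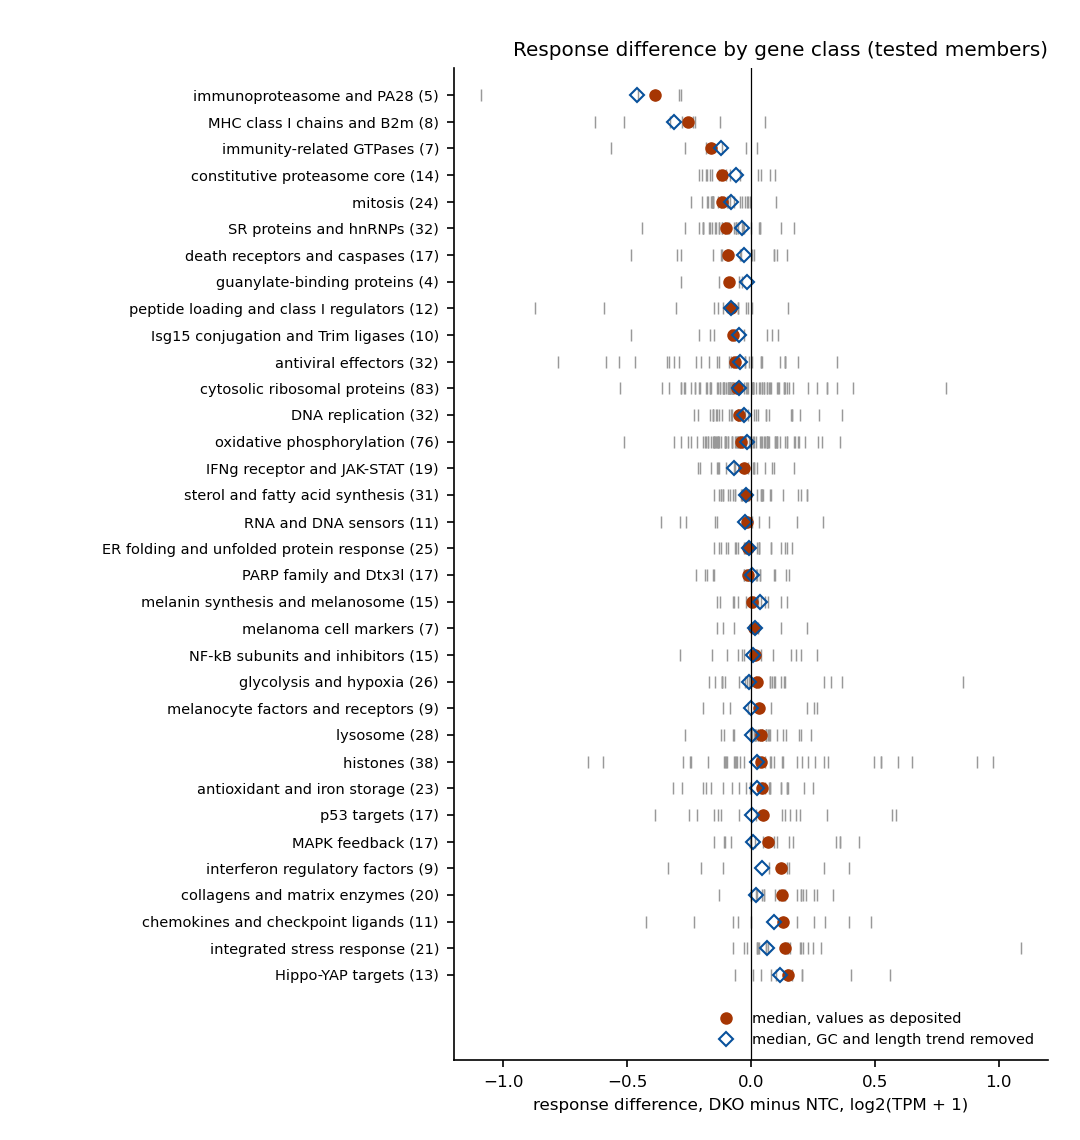
Response differences (DKO minus NTC, log2) of every tested member of each gene class with 4 or more tested members are drawn as ticks, with filled circles for the class median and open diamonds for the median after the trend on GC content and length was removed. Classes run from the immunoproteasome list at −0.39 to the Hippo-YAP list at 0.15, and the collagen, stress response and splicing lists move toward 0 without the trend. The −0.39 includes *Psmb8*, tested through its treated NTC libraries alone, and is −0.34 without it.

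Outside the interferon classes no listed gene passed the adjusted threshold in either direction, and 5 of the lists that leaned to 1 side are described here. Mitotic genes had 23 of 24 members below 0 and a median of −0.12. At an unadjusted p under 0.05 stood 7 below and 0 above (6.22% and 5.26% of all genes). *Bub1b*, a kinase of the spindle checkpoint, went from 47.8, 47.4 and 46.7 to 52.2, 56 and 55.2 TPM in NTC and from 43.5, 45.4 and 43.4 to 44.8, 44.6 and 44.8 TPM in DKO cells. Its difference was −0.18 (SE 0.06, adjusted p = 0.382). With GC and length removed 21 mitotic genes stayed below 0, with a median of −0.08 and 3 below at an unadjusted p under 0.05 (4.22% of all genes).

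SR proteins and hnRNPs, the general splicing regulators, had 27 of 32 members below 0 with a median of −0.10, and a low GC content of 43.3% in the median. Without the trend on GC and length the median was −0.04, and without treated DKO replicate 2 it was −0.06. *Hnrnpa1* differed by −0.21 (adjusted p = 0.42) and *Srsf10*, an SR protein, by −0.27 (adjusted p = 0.364). *Srsf10* read 110.2, 111 and 109 TPM and then 118, 112 and 119 TPM in NTC, and 126, 138 and 143 TPM and then 121, 108 and 128 TPM in DKO cells. In that gene the DKO groups overlapped and the SE of the difference was 0.09.

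Genes of the integrated stress response, the program that ATF4 runs when amino acids or heme are short, had 18 of 21 members above 0 with a median of 0.14. At an unadjusted p under 0.05 there were 6 above and 0 below (5.26% and 6.22% of all genes). All 21 were lower in DKO without IFNγ (19.4% of all genes were), and 19 with it (23.9%), at an adjusted p under 0.05. In NTC 7 fell with IFNγ (4.78% of all genes did) and in DKO 0 (0.103% did). *Cebpb*, a bZIP factor, went from 8.59, 8.97 and 10.2 to 3.7, 4.68 and 2.19 TPM in NTC and from 2.49, 3.12 and 2.24 to 2.52, 2.54 and 1.85 TPM in DKO cells. It started so much lower in DKO that its untreated DKO libraries overlapped the treated NTC ones, and the response difference was 1.09 (SE 0.25, adjusted p = 0.338). With GC and length removed the list's median was 0.06, with 2 members above 0 at an unadjusted p under 0.05 (3.44% of all genes). The deposited median rested on untreated NTC replicate 1: it was 0.0067 without that library and at most 0.16 without any other.

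Collagens and matrix enzymes had 19 of 20 members above 0 and a median of 0.12, but 13 of 20 and 0.02 with GC and length removed, and a median of 0.07 without treated DKO replicate 2. *Fn1*, fibronectin, read 17.7, 16.1 and 18.1 TPM and then 16.3, 15.1 and 15.7 TPM in NTC, and 24.3, 22.9 and 23.4 TPM and then 27.2, 27.1 and 27.1 TPM in DKO cells. The DKO groups did not overlap, and the difference was 0.33 (SE 0.08, adjusted p = 0.364). The Hippo-YAP targets, genes that the coactivator YAP turns on in spread cells, kept their departure better. Of 13 tested 12 lay above 0 with a median of 0.15, and 10 with a median of 0.12 without the trend. With the trend and without it, 4 had an unadjusted p under 0.05, all above 0 (5.26% and 3.44% of all genes). *Cyr61*, a matricellular protein, went from 12.6, 14 and 14.4 to 10.3, 9.91 and 9.06 TPM in NTC and from 12.7, 13 and 12.4 to 13.9, 14.9 and 12.7 TPM in DKO cells, a difference of 0.56 (SE 0.10, adjusted p = 0.123).

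Pigment genes gave a median difference near 0 although their level differed. The melanin list had 15 members tested, a median difference of 0.003 with 7 below and 8 above 0, and a slope of 0.95 over 10 members. With GC and length removed 3 lay below and 12 above 0, with a median of 0.035 and 2 above at an unadjusted p under 0.05 (3.44% of all genes). At an adjusted p under 0.05, 13 were lower in DKO without IFNγ (19.4% of all genes were) and 15 with it (23.9%). *Dct*, which isomerizes dopachrome, ranged from 4366 to 4594 TPM in NTC and from 2648 to 2778 TPM in DKO libraries over both conditions, with a response difference of 0.03 (SE 0.05, adjusted p = 0.848).

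Single genes outside the lists departed in the other direction from the interferon genes. *Sox4*, a transcription factor of progenitor cells, fell in NTC from 11.4, 13.9 and 14.4 to 7.91, 7.42 and 6.73 TPM. In DKO cells it read 14.8, 14.2 and 14.6 TPM and then 13, 14.3 and 12.7 TPM. The difference was 0.64 (SE 0.12, adjusted p = 0.123). *Gng8*, a G protein γ subunit, fell in NTC from 14.6, 11.5 and 11.8 to 7.34, 6.56 and 4.9 TPM and read 5.31, 6.06 and 5.18 TPM and then 5.53, 6.32 and 7.31 TPM in DKO cells, where it began as low as treated NTC cells ended (difference 1.09, SE 0.19, adjusted p = 0.0785). *Cd68*, a lysosomal membrane glycoprotein named after its values were seen, was the reverse case of a larger rise in DKO. It read 1.97, 1.51 and 1.6 TPM and then 2.62, 1.65 and 1.99 TPM in NTC, and 2.4, 3.11 and 2.53 TPM and then 6.49, 5.39 and 4.84 TPM in DKO cells. The difference was 0.65 (SE 0.19, adjusted p = 0.364).

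Several genes at the extremes lie in overlapping annotations. ENSMUSG00000093701, named *Gm21970* in GENCODE M21, spans chr16:91391721-91419451 and shares its strand and part of its span with *Ifnar2* and *Il10rb*. It read 2.42, 2.11 and 2.18 TPM and then 4.98, 4.41 and 5.14 TPM in NTC, and 2.79, 3.34 and 3.72 TPM and then 2.85, 2.3 and 2.82 TPM in DKO cells. The treated DKO libraries all lay under the treated NTC ones, and the difference was −1.08 (SE 0.15, adjusted p = 0.0256). *Ifnar2*, a chain of the type I interferon receptor, and *Il10rb*, a chain shared by receptors of the interleukin-10 family and named after its values were seen, stood far higher, at 24.4 to 43.1 TPM and 83.1 to 102 TPM, with response differences of −0.17 and −0.08 (adjusted p = 0.571 and 0.61). How reads shared by the 3 annotations were divided was not tested.

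A second overlap gave opposite values on its 2 sides. *2310003F16Rik* (chr2:121453290-121458672) and *Serf2* (chr2:121449195-121458313) lie on the same strand of the same stretch. *2310003F16Rik* went from 54.5, 58.5 and 54.7 to 100.4, 113 and 109.8 TPM in NTC and from 42.1, 38.3 and 45.7 to 58.7, 51.9 and 52.5 TPM in DKO cells, a difference of −0.57 (SE 0.10, adjusted p = 0.0785). *Serf2* went from 157, 149 and 155 to 118, 102 and 109 TPM in NTC and from 119, 119 and 115 to 108, 116 and 107 TPM in DKO cells, a difference of 0.39 (SE 0.07, adjusted p = 0.123). Summed, the pair averaged 209 TPM without and 218 TPM with IFNγ in NTC cells, against 160 and 165 TPM in DKO cells. The difference of the sum was −0.01.

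*Gfra4*, a receptor chain for the ligand persephin, was the only gene called above 0, and it rested on values at the bottom of the range. It read 1.51, 1.18 and 1.4 TPM in untreated NTC libraries and is listed at 0 in all 3 treated ones. DKO libraries read 1.27, 1.48 and 1.14 TPM without IFNγ and 1.6, 1.22 and 1.11 TPM with it. The response difference was 1.24 (SE 0.17, adjusted p = 0.0256), and 1.12 with an adjusted p of 0.0658 without the trend on GC and length. At a filter of 5 TPM it was not tested.

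Housekeeping lists spread to both sides. Of 83 cytosolic ribosomal protein genes 49 lay below 0, with a median of −0.06, or −0.02 with equal library totals. At an unadjusted p under 0.05 stood 16 below and 3 above (6.22% and 5.26% of all genes). *Rpl13* differed by −0.36 (SE 0.07, adjusted p = 0.123). *Rps16* read 354, 532 and 454 TPM and then 305, 223 and 125 TPM in NTC, and 575, 353 and 395 TPM and then 339, 404 and 299 TPM in DKO cells, which made a difference of 0.79 with an SE of 0.37 (adjusted p = 0.437). The glycolytic enzyme *Pgam1* (84.4, 142 and 142, then 77.7, 64.1 and 36.3 TPM in NTC, and 166, 77.1 and 96.5, then 86.7, 126 and 73.1 TPM in DKO) and the histone *H2afj* spread in a like way. In these 3 genes replicate 3 of treated NTC was the lowest of the 12 libraries and replicate 1 of untreated DKO the highest. Of 76 oxidative phosphorylation genes 45 lay below 0, with a median of −0.04.

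The *Mbnl* genes themselves had response differences within their error. The response difference was −0.05 for *Mbnl1* (SE 0.07, adjusted p = 0.78), −0.03 for *Mbnl2* (SE 0.07, adjusted p = 0.883) and −0.13 for *Mbnl3* (SE 0.15, adjusted p = 0.735). For *Mbnl1* and *Mbnl2* the sign depended on the scaling, with 0.056 for *Mbnl1* when GC and length were removed and 0.0024 for *Mbnl2* with equal library totals.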

How the data were processed

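RNA-seq was measured in 12 libraries of B16-F10 Cas9 cells, poly(A)-selected and unstranded. Expression was deposited as TPM. The submitters' processing notes name RSEM 1.2.4, Bowtie, TopHat (listed as version 20.8b) and mm10. They are not whole numbers, scaling between libraries is not stated, and depth is unknown. The members, gene lists and tests were chosen with earlier results of these data known.

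The filter required 1 TPM in 3 or more libraries. Linear models of log2(TPM + 1) with a mean for each group came from limma 3.58.1 (R 4.3.3), whose prior variance followed expression. A fold change on this scale understates that of low genes. Adjusted p-values are Benjamini-Hochberg over 11663 genes. The fit was tested on simulated data. Slopes, medians and motif matches came from Python 3.11.15, and coordinates, GC content and length from GENCODE M21 (22251 listed genes found). The trend on GC and length was a spline with 4 degrees of freedom each.

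Named genes were those past the threshold for the difference, 12 that rose and 6 that fell most on average, 8 per direction with the smallest p for the difference, and per list the strongest responder and the smallest p. Genes outside this rule are marked as named after their values were seen.

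Alternatives were another pseudocount, other filters and scalings, a replicate block, each library left out, and no expression-dependent prior. The block combined with removal of the GC and length trend was chosen after seeing the data. A gene that the naming rule selects is not reported here.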

Additional observations from a re-analysis of the deposited data

Results flagged for a closer look

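The 4 genes whose response to IFNγ differed between genotypes past the threshold of limma's adjusted p were ENSMUSG00000093701 (−1.08), *B2m* (−0.63), *Gfra4* (1.24) and *Psmb9* (−1.09), each with an adjusted p of 0.0256. Over the alternatives in which each was tested the adjusted p ranged from 0.0177 to 0.107 for ENSMUSG00000093701, from 0.000426 to 0.102 for *B2m*, from 0.00269 to 0.158 for *Gfra4* and from 0.0179 to 0.11 for *Psmb9*. With 1 library left out in turn, the call held in 2 of 12 fits for ENSMUSG00000093701, in 4 for *B2m*, in 1 for *Gfra4* and in 1 for *Psmb9*, while the difference itself stayed between −1.16 and −1.005, −0.68 and −0.56, 1.16 and 1.31, and −1.19 and −1.01. Groups of 3 libraries were too small for a test of single outlying samples.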

How the results depend on the processing

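Genes past the threshold for the response difference numbered 4, and 1 at a filter of 5 TPM, 10 without a filter, 2 with a replicate block and 0 to 7 with a library left out. It was 0 without any 1 of untreated NTC replicates 1 to 3, untreated DKO replicates 2 and 3 or treated DKO replicate 1, and 7 without treated NTC replicate 1. Unadjusted p under 0.05 then held for 834 to 2328 genes. Calls in NTC numbered 1411, and 519 with GC and length removed, 737 without an expression-dependent prior, 897 without a filter, 407 with GC and length removed and the block, and 319 to 2020 with a library left out. Averaged calls numbered 1194, and 756 without the prior, 626 with GC removal and the block, and 497 to 2281 with a library left out. The slope of rising genes with an averaged response over 0.5 was 0.826, and 0.754 for genes chosen by the NTC response. That choice is not the 853 genes that gave 0.651.

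Same-numbered libraries of different groups did not deviate together (correlations of −0.18 to 0.18 over 18 pairs, against −0.22 to 0.21 over 36 pairs with different numbers), so the numbers were not taken as pairs.

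Of 1211 alternative values for named genes, 1146 kept side and direction. Reversals were all of differences near 0. *Mbnl1* and *Gbp3* turned to 0.056 and 0.011 with GC and length removed, with the block or without it, and *Mbnl2* to 0.0024 with equal totals. With a library left out, *Mbnl2* ran from −0.094 to 0.017, *Ube2l6* from −0.15 to 0.036, *Gbp3* from −0.096 to 0.019 and *Tgtp2* from −0.23 to 0.11. Of 720 values for list medians 92 moved by more than the replicate SD. The cause of these changes was not tested. Unknown depth and 3 libraries per group limit what could be detected.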
